A study of Mus musculus with 12 samples.

Results

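The genes described here are 8 transcription factor genes of the ventral telencephalon: the distal-less homeobox genes Dlx1, Dlx2, Dlx5 and Dlx6, the genomic screened homeobox genes Gsx1 and Gsx2, and the zinc finger genes Sp8 and Sp9. They were taken by symbol. Every probe named for one of the 8 genes was kept, which gave 10 of the 55681 non-control probes on the array, with Gsx2 and Sp8 read by 2 probes each. RNA was hybridised to 12 single-colour Agilent mouse arrays. 4 groups of neurons derived from mouse embryonic stem cells (male, 129/Ola background) had 2 arrays each at day 16 in vitro, and every group was given inhibitors from day 0, namely 53AH at 2.5 µM against WNT and LDN193189 at 0.25 µM against BMP receptors. In CHIR_8-16, which the labels call hippocampal culture, the inhibitors stopped at day 8 and the WNT agonist CHIR (3 µM), an inhibitor of the kinase GSK3, followed until day 16. Counted through its steps, the protocol instead puts that switch at day 7. In CHIR_11-16 the inhibitors ran to day 11 and the agonist from day 11 to day 16, with no dose given for this group. WiBi_0-16 had the inhibitors to day 16 and no agonist, and WiBi_0-11, the isocortical culture of the labels, had them to day 11 and no agonist. Another 4 arrays held E15 ventral telencephalon, cortex, hippocampus and midbrain of Sv129s6 embryos of both sexes, 1 array a tissue. Each sample pooled RNA from 3 sets of experiments, so a culture group is 2 pools, and a p-value speaks of the spread from pool to pool, which may be technical.

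In the embryo, Gsx2 and Gsx1 are made by dividing progenitors of the lateral and medial ganglionic eminences, where Gsx2 sets the ventral against the pallial fate. Dlx1 and Dlx2, neighbours in one gene cluster, act downstream in progenitors that are leaving the cell cycle, and Dlx5 and Dlx6, a second cluster, follow in their postmitotic progeny. These factors drive the genes of GABA synthesis and of tangential migration. Sp8 and Sp9 are related zinc finger factors of the same lineages, found in olfactory bulb interneurons and in striatal neurons. Sp8 is also made by progenitors of the early pallium. In bulk RNA a lower level can come from fewer cells of a type or from less RNA per cell, and these cannot be told apart.

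The paired probes matter because they are the only within-gene check on the array. The first 30 bases of each 60-base probe are printed below, with no letters in capitals. The 2 Gsx2 probes start 183 bases apart on chromosome 5 (mm9, plus strand, chr5:75473487-75473546 and chr5:75473670-75473729), and put the arrays in much the same order. The 2 Sp8 probes start 2735 bases apart on chromosome 12 (mm9, plus strand, chr12:120088145-120088204 and chr12:120090880-120090939), at positions 1573 and 4308 of the transcript, and gave differences of unlike size. The files place the upstream Sp8 probe in 2 Ensembl transcripts and the downstream one in 1.
Gsx2 upstream probe: agctcctctttatctgggattccactcagt
Gsx2 downstream probe: tgtcttttcagaacttgatgagaagagggg
Sp8 upstream probe: tgcaacaaacgcttcatgcgcagcgaccac
Sp8 downstream probe: aaacattgtcttgttatgtctaagtgcatt

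The other probes lie, on mm9, at chr2:71371499-71371558 (Dlx1, plus strand), chr2:71381553-71381612 (Dlx2, minus), chr6:6828063-6828122 (Dlx5, minus), chr6:6815092-6815151 (Dlx6, plus), chr5:148002422-148002481 (Gsx1, plus) and chr2:73113161-73113220 (Sp9, plus). The Dlx6 probe sits at position 508 of its transcript, whereas the Dlx1, Dlx2, Dlx5 and Sp9 probes sit at positions 1088 to 2325. The RNAs Dlx6os1 and Dlx6os2 overlap Dlx6, and Dlx1as is named as an antisense RNA of Dlx1. The files place the Dlx6 and Sp9 probes in no Ensembl transcript, and which of the overlapping RNAs a probe reads was not tested.

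Values are log2 signals minus the 75th percentile of the array, so a value of 0 is as bright as that percentile, and levels of different probes are not set against each other. All 10 probes passed the filter, and 9 of the 10 were well above background on all 8 culture arrays, CHIR_8-16 included. The exception was the downstream Gsx2 probe, which was not well above background on CHIR_8-16 replicate 2. Of the spots of an array 59.06% to 71.18% were well above background and 0 were saturated, and 36430 probes were tested in the cultures. Slide 2 held the first replicates of the culture groups and slide 3 the second, and 33.5% of the probes tested differed between these slides (limma, adjusted p under 0.05). Slide and replicate pool cannot be told apart, so a difference between slides here may be one between pools. The number of arrays, 2 a group, limits the precision of every value.

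Both CHIR_8-16 arrays read below all 6 other culture arrays for 8 of the 10 probes: Dlx1, Dlx2, Dlx5, both Gsx2 probes, both Sp8 probes and Sp9. Dlx6 and Gsx1 were the exceptions. Of all probes tested, 6.07% had both CHIR_8-16 arrays below the other 6, and 4.3% had both above, as did 0 of the 10. No member probe had the arrays of CHIR_11-16, WiBi_0-16 or WiBi_0-11 below, or above, all others, against 2.09%, 6.6% and 2.3% of all probes below and 3.97%, 4.14% and 3.04% above. The 6 arrays of those groups stayed within a span of 0.62 log2 (upstream Gsx2 probe) to 1.97 log2 (Dlx6) for each member probe. The 2 CHIR_8-16 arrays were themselves far apart, by a median of 1.38 log2 over the member probes (0.09 to 3.32, over 1 for 7 of 10), against 0.47 over all probes. The same median was 0.48 in CHIR_11-16, 0.78 in WiBi_0-16 and 0.55 in WiBi_0-11.

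**Figure D1:**
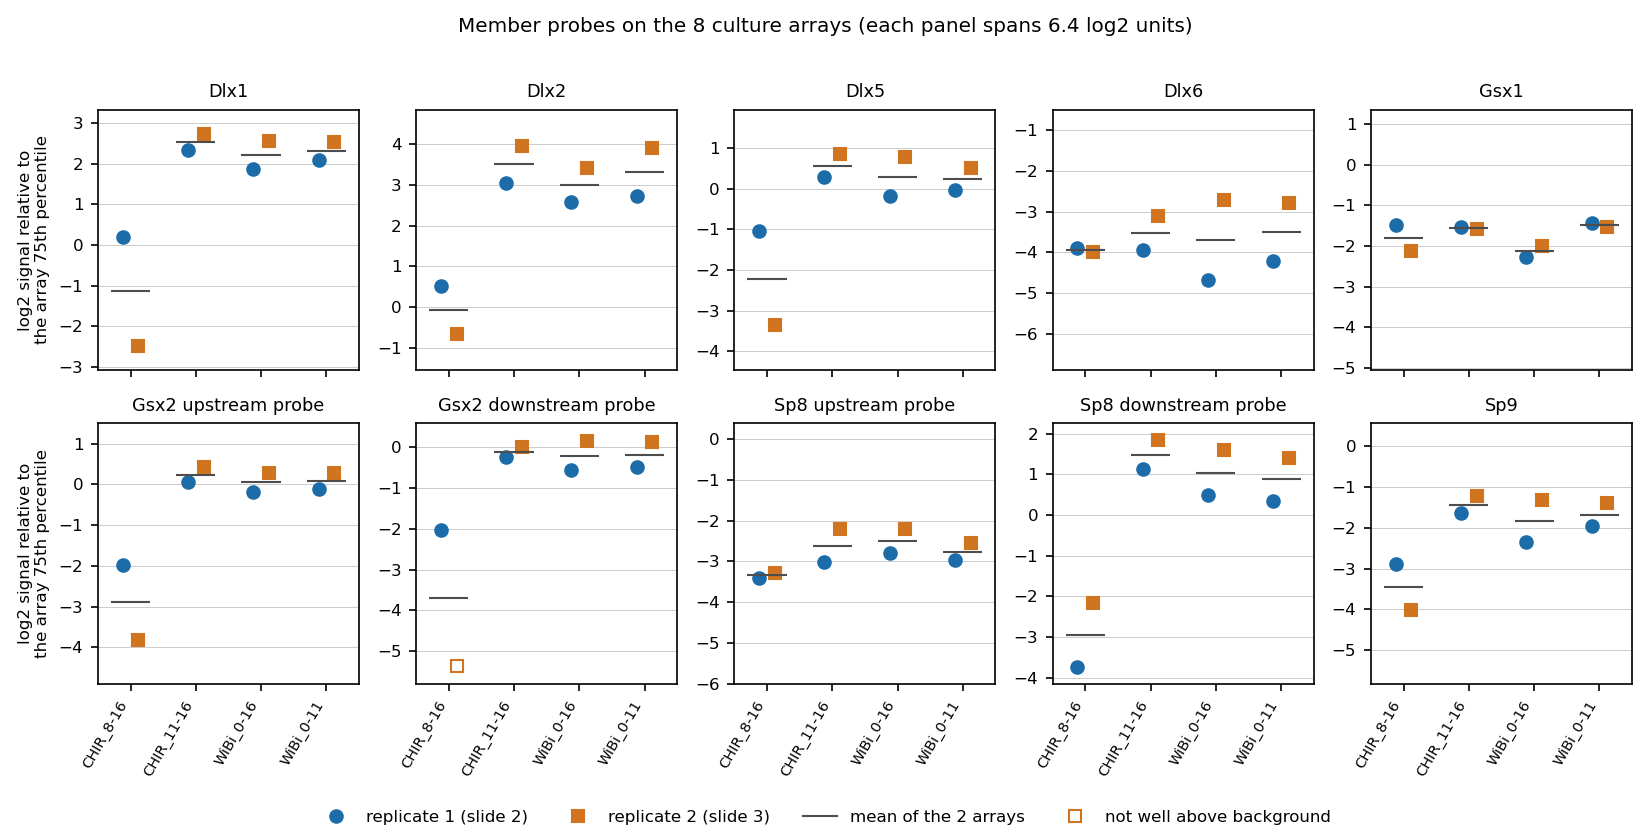
Log2 signal relative to the array 75th percentile (y axis) of the 10 member probes in the 4 culture groups (x axis), circles for replicate 1 on slide 2, squares for replicate 2 on slide 3, an open symbol where the spot was not well above background, and a line at the mean of the 2 arrays. Both CHIR_8-16 arrays lie below the other 6 for 8 of 10 probes, and Dlx6 and Gsx1 overlap.

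Gsx2, the factor that places progenitors in the lateral ganglionic eminence, read -1.97 and -3.81 on its upstream probe in CHIR_8-16, 0.06 and 0.43 in CHIR_11-16, -0.19 and 0.29 in WiBi_0-16, and -0.10 and 0.28 in WiBi_0-11. Its downstream probe read -2.04 and -5.36 in CHIR_8-16, -0.24 and 0.02 in CHIR_11-16, -0.55 and 0.16 in WiBi_0-16, and -0.48 and 0.13 in WiBi_0-11. Both probes put the 2 CHIR_8-16 arrays lowest, replicate 2 far below replicate 1, and mixed the other 6. CHIR_8-16 was 7.91-fold lower than WiBi_0-11 on the upstream probe (log2 -2.98, SE 0.60). On the downstream Gsx2 probe the difference was -3.52 log2 (SE 1.02), a value that uses the signal of a CHIR_8-16 replicate 2 spot not well above background, and it was -3.32 with that spot at the lowest signal well above background on its array. Neither passed in limma (adjusted p = 0.26 and 0.43, or 0.11 and 0.16 in a fit that also had slide as a block). Within slide 2 the differences were -1.88 and -1.56, and within slide 3 the upstream probe differed by -4.09. The downstream probe had no exact difference within slide 3, where the CHIR_8-16 spot was the dim one.

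Gsx1, the paralogue found mostly in medial progenitors, did not follow Gsx2. It read -1.48 and -2.11 in CHIR_8-16, -1.52 and -1.57 in CHIR_11-16, -2.26 and -2.00 in WiBi_0-16, and -1.44 and -1.54 in WiBi_0-11. The CHIR_8-16 arrays lay among the others. The difference from WiBi_0-11 was -0.31 log2 (SE 0.25, 95% interval -0.93 to 0.31, limma adjusted p = 0.82), and the Gsx2 difference of -2.98 lies outside this interval. The Gsx1 difference was -0.04 within slide 2 and -0.57 within slide 3. WiBi_0-16 had the lowest mean for Gsx1, -0.64 log2 from WiBi_0-11 with no overlap of the arrays of these groups, which did not pass (SE 0.25, limma adjusted p = 1.0, or 0.44 in the blocked fit).

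Dlx1 and Dlx2, the first Dlx genes to come on in the lineage, were also lowest on both CHIR_8-16 arrays. Dlx1 read 0.20 and -2.47 in CHIR_8-16, 2.33 and 2.72 in CHIR_11-16, 1.88 and 2.56 in WiBi_0-16, and 2.08 and 2.54 in WiBi_0-11. Dlx2 read 0.52 and -0.66 in CHIR_8-16, 3.06 and 3.96 in CHIR_11-16, 2.58 and 3.43 in WiBi_0-16, and 2.73 and 3.91 in WiBi_0-11. In both genes replicate 2 was the lower of the CHIR_8-16 arrays, and the other groups overlapped. The size was alike, 10.9-fold lower than in WiBi_0-11 for Dlx1 (log2 -3.45, SE 0.84) and 10.5-fold lower for Dlx2 (log2 -3.39, SE 0.63). Neither passed in limma (adjusted p = 0.35 and 0.26, and 0.14 and 0.088 with the slide block), with -1.88 and -2.20 log2 within slide 2 and -5.01 and -4.58 within slide 3.

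Dlx5, a factor of postmitotic interneuron precursors, read -1.05 and -3.36 in CHIR_8-16, 0.29 and 0.84 in CHIR_11-16, -0.18 and 0.77 in WiBi_0-16, and -0.03 and 0.51 in WiBi_0-11. The groups other than CHIR_8-16 overlapped. The difference of CHIR_8-16 from WiBi_0-11 was -2.45 log2 (SE 0.78, limma adjusted p = 0.47, and 0.19 with the block), -1.02 within slide 2 and -3.87 within slide 3. Dlx6, its cluster partner, read -3.90 and -3.99 in CHIR_8-16, -3.93 and -3.11 in CHIR_11-16, -4.68 and -2.71 in WiBi_0-16, and -4.20 and -2.78 in WiBi_0-11. All 4 groups overlapped, and both CHIR_8-16 arrays sat inside the range of the other 6. Its difference was -0.45 log2 (SE 0.76, 95% interval -2.33 to 1.43, limma adjusted p = 0.96), an interval that holds 0 but not the Dlx2 difference of -3.39. The intervals of Dlx5 (-4.36 to -0.53) and Dlx2 (-4.93 to -1.85) overlapped it. With the slide block the Dlx6 interval was -1.66 to 0.76, and the difference was 0.31 within slide 2 and -1.21 within slide 3. In that fit the Dlx5 interval (-4.47 to -0.42) overlapped the Dlx6 interval and the Dlx2 interval (-4.87 to -1.91) did not. Differences between these genes were not tested. The blocked estimate for Dlx6 was 1.03 log2 higher on slide 3 than on slide 2, which did not pass (limma adjusted p = 0.070). Whether slide bears on the overlap of its arrays was not tested. The Dlx6 spot gave 31.5 to 117.5 raw units on the culture arrays and was well above background on each.

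The other RNAs of the 2 clusters were read beside the members. Dlx6os1, the noncoding RNA Evf2 that overlaps Dlx6 and regulates the Dlx5 and Dlx6 cluster in mouse, read -1.05 and -3.84 in CHIR_8-16, 1.37 and 1.73 in CHIR_11-16, 0.87 and 1.76 in WiBi_0-16, and 0.77 and 1.52 in WiBi_0-11. Both CHIR_8-16 arrays lay below the other 6, and replicate 2 was the lower. The difference from WiBi_0-11 was -3.59 log2 (SE 0.90) and did not pass in limma (adjusted p = 0.37, and 0.14 with the block). Dlx1as read -5.41 and -7.20 in CHIR_8-16, where replicate 2 was not well above background, against -4.57 and -3.43 in WiBi_0-11 (log2 -2.30, SE 0.74, limma adjusted p = 0.47, and 0.19 with the block). Dlx6os2 differed by -0.42 log2 (SE 0.23, limma adjusted p = 0.67). Of the other Dlx genes, Dlx3, a gene of skin and placodes, read 0.97 to 2.28 on the 8 culture arrays with the groups overlapping, and Dlx4 was not well above background on 6 of the 12 arrays.

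Sp8, on its downstream probe, read -3.73 and -2.16 in CHIR_8-16, 1.12 and 1.85 in CHIR_11-16, 0.49 and 1.59 in WiBi_0-16, and 0.35 and 1.41 in WiBi_0-11. Replicate 2 was the higher array in every group here, CHIR_8-16 included, whereas Dlx1, Dlx2, Dlx5, Gsx2 and Sp9 had replicate 2 as the lower CHIR_8-16 array. CHIR_8-16 was 14.1-fold lower than WiBi_0-11 (log2 -3.82, SE 0.69), 15.8-fold lower than WiBi_0-16 (log2 -3.98) and 21.5-fold lower than CHIR_11-16 (log2 -4.43). Without a slide term none of these passed in limma (adjusted p = 0.26, 0.19 and 0.90).

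In the fit blocked by slide, the downstream Sp8 probe fell in CHIR_8-16 against WiBi_0-11 (SE 0.22, limma adjusted p = 0.020) and against WiBi_0-16 (SE 0.22, limma adjusted p = 0.023), and did not pass against CHIR_11-16 (limma adjusted p = 0.051). The differences from WiBi_0-11 within slides 2 and 3 were -4.08 and -3.57. It was the 1 member called in either of the first 2 comparisons, in which 0.307% and 0.931% of all probes were called. The calls were lost when any 1 array other than CHIR_8-16 replicate 1 was left out (adjusted p = 0.057 to 0.14 against WiBi_0-11 and 0.063 to 0.12 against WiBi_0-16), and when dim probes were tested too (adjusted p = 0.11 and 0.13), while the difference from WiBi_0-11 stayed at -4.13 to -3.52. In the blocked fit without CHIR_8-16 replicate 1, the differences from WiBi_0-11 were -5.04 log2 (Dlx1), -4.11 (upstream Gsx2 probe) and -2.67 (Sp9). Without CHIR_8-16 replicate 2 they were -1.86, -1.86 and -0.88. Of the 10 member probes, only the downstream Sp8 probe lay further below without replicate 2 (-4.13) than without replicate 1 (-3.52). Each of these fits leaves 1 CHIR_8-16 array, a group that is then assumed to vary like the others. The size of the differences thus depends on which CHIR_8-16 array is kept.

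The upstream Sp8 probe read much smaller differences. It read -3.40 and -3.28 in CHIR_8-16, -3.01 and -2.20 in CHIR_11-16, -2.80 and -2.21 in WiBi_0-16, and -2.97 and -2.55 in WiBi_0-11. Both CHIR_8-16 arrays were again the lowest 2, but close below the others. The difference from WiBi_0-11 was -0.58 log2 (SE 0.20 with the block, 95% interval -1.07 to -0.08, limma adjusted p = 0.20), against -3.82 (-4.38 to -3.27) on the downstream probe. The 2 intervals do not overlap. The difference between the probes was not itself tested, and the result for Sp8 therefore rests on 1 probe. Both Sp8 probes were higher on slide 3 than on slide 2 (log2 0.48, adjusted p = 0.047, and 1.12, adjusted p = 0.0071, limma), the only 2 member probes so called.

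Sp9, which acts with Sp8 in striatal and olfactory lineages, read -2.90 and -4.02 in CHIR_8-16, -1.64 and -1.23 in CHIR_11-16, -2.35 and -1.32 in WiBi_0-16, and -1.96 and -1.40 in WiBi_0-11. The CHIR_8-16 arrays were again lowest with replicate 2 below replicate 1, as in Dlx1, Dlx2, Dlx5 and Gsx2. CHIR_8-16 was 3.42-fold lower than WiBi_0-11 (log2 -1.78, SE 0.51), which did not pass in limma (adjusted p = 0.43, and 0.16 with the block). The difference was -0.93 within slide 2 and -2.62 within slide 3.

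Over the 10 probes, limma without a block called 0 in each of the 6 comparisons, as it called 0.0% of all probes in each. At an unadjusted p under 0.05, 7 of 10 member probes were lower in CHIR_8-16 than in WiBi_0-11, against 4.64% of all probes. The counts were also 7 of 10 against WiBi_0-16 (5.16% of all probes) and against CHIR_11-16 (1.87%), and 8 of 10 in each of these 3 comparisons with slide as a block (8.75%, 10.9% and 4.6%). The median difference of the members was -2.72, -2.72 and -2.95 log2 in CHIR_8-16 against WiBi_0-11, WiBi_0-16 and CHIR_11-16, where that of all probes was 0.06, 0.00 and 0.04. These 3 comparisons share the CHIR_8-16 arrays and are not independent.

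**Figure D2:**
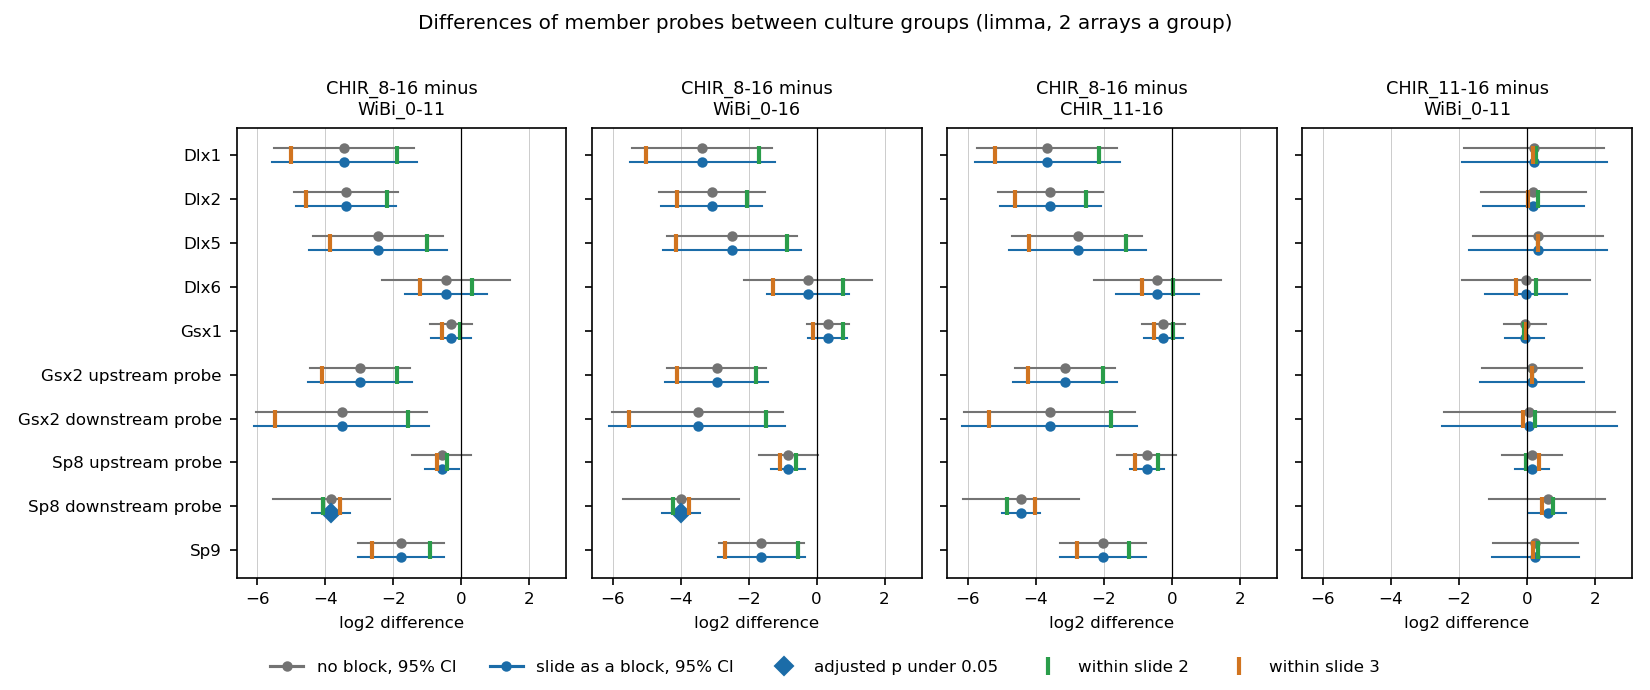
Log2 differences between culture groups (x axis) for each member probe (y axis) with 95% intervals from limma without (grey) and with slide as a block (blue), diamonds where adjusted p was under 0.05, and ticks for the differences within slide 2 and slide 3. The diamonds are the downstream Sp8 probe at -3.82 and -3.98, Dlx6 and Gsx1 lie at 0 or near it, and every interval of CHIR_11-16 minus WiBi_0-11 without a block holds 0.

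With the later agonist the estimates of the members lay near those of WiBi_0-11. CHIR_11-16 was 0.17 log2 above WiBi_0-11 at the median of the members (-0.06 to 0.61), with 0 of 10 called without or with the block, where 0.0% and 0.00823% of all probes were called. At an unadjusted p under 0.05 the count was 0 of 10, against 4.31% of all probes, and with the block 1 of 10, the downstream Sp8 probe, which was higher in CHIR_11-16 (log2 0.61, SE 0.22, limma adjusted p = 0.40), against 11.7% of all probes. The 95% intervals without the block ran from -2.44 at the lowest to 2.58 at the highest. For Dlx1, Dlx2, Dlx5, both Gsx2 probes, Sp9 and the downstream Sp8 probe, the difference of CHIR_8-16 from WiBi_0-11 lay below the interval of CHIR_11-16. That reading leaves out the error of the CHIR_8-16 difference. Compared directly, CHIR_8-16 differed from CHIR_11-16 by log2 -2.02 (Sp9) to -4.43 (downstream Sp8 probe) for these probes. None passed in limma (smallest adjusted p = 0.90, or 0.051 with the block). These groups differ in agonist start and length, in inhibitor length and perhaps in dose, which cannot be told apart. Against WiBi_0-16, CHIR_11-16 was 0.29 log2 higher at the median (-0.11 to 0.58), with 0 of 10 called. At an unadjusted p under 0.05 the counts were 0 of 10 without the block (9.31% of all probes) and 1 of 10 with it, Gsx1 (21.2%). With inhibitors to day 16 the members were as close: WiBi_0-16 was -0.06 log2 from WiBi_0-11 at the median (-0.64 to 0.26, 0 of 10 called, 1 of 10 at an unadjusted p under 0.05, which was Gsx1, against 2.75% of all probes and 11.0% in the blocked fit).

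In E15 tissues the ventral telencephalon array read highest for all 10 probes. Of the 10 probes, 7 were at least 2-fold higher there than in each of the other 3 tissues, against 2.05% of the 32102 probes compared. The count was 9 of 10 over cortex (8.6% of all probes), 8 over hippocampus (8.84%) and 9 over midbrain (4.71%). There is 1 array a tissue, so none of these differences could be tested. Nkx2-1 and Lhx8, factors of the medial ganglionic eminence, read 0.55 and 2.91 in ventral telencephalon, against -8.46 to -5.57 in the other 3 tissues. The ventral array also read pallial genes. A list of 7 of them summed to 60.7 multiples of the array 75th percentile there. It summed to 112.3 in cortex, 74.5 in hippocampus and 3.21 in midbrain. The part of pallial cells in the ventral sample was not tested. Dlx1 was 3.97-fold higher in ventral telencephalon than in cortex and 3.87-fold higher than in hippocampus, and at least 602-fold higher than in midbrain, where it was not well above background. Dlx2 was 2.93-fold, 4.54-fold and 634-fold higher than in cortex, hippocampus and midbrain, and Dlx5 was 3.9-fold, 4.42-fold and 54.8-fold higher. The pallial tissues thus still held Dlx1, Dlx2 and Dlx5 signal well above that of midbrain.

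Dlx6 and Gsx2 were higher in ventral telencephalon than in either pallial tissue. Dlx6 read -1.06 in ventral telencephalon, -4.89 in cortex and -4.99 in hippocampus, which makes it 14.3-fold and 15.2-fold higher in ventral telencephalon. The Gsx2 probes were 9.18-fold (upstream) and 15-fold (downstream) higher than in cortex, and 21.9-fold and at least 30.9-fold higher than in hippocampus. On these single arrays the Dlx6 spot gave 381.7 raw units in ventral telencephalon, 21.2 in cortex and 21.3 in hippocampus. Its culture groups overlapped. Gsx1 read -0.77 in ventral telencephalon and -0.81 in midbrain, 1.03-fold apart, against -3.70 in cortex and -4.15 in hippocampus. It was the 1 member of the 10 probes that ventral telencephalon and midbrain held within 2-fold.

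The 2 Sp8 probes parted again in the embryo. On the downstream probe Sp8 read 1.68 in ventral telencephalon, -0.10 in cortex, 0.86 in hippocampus and -2.23 in midbrain, a span of 3.91 log2. On the upstream probe it read -2.01, -2.65, -2.21 and -3.21 in the same tissues, a span of 1.20 log2. Both gave the same order of tissues, with the smaller span on the upstream probe. Hippocampus was the closest tissue to ventral telencephalon, 1.76-fold lower on the downstream and 1.15-fold lower on the upstream probe. Sp9 was 3.55-fold, 4.55-fold and 11.0-fold higher in ventral telencephalon than in cortex, hippocampus and midbrain.

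**Figure D3:**
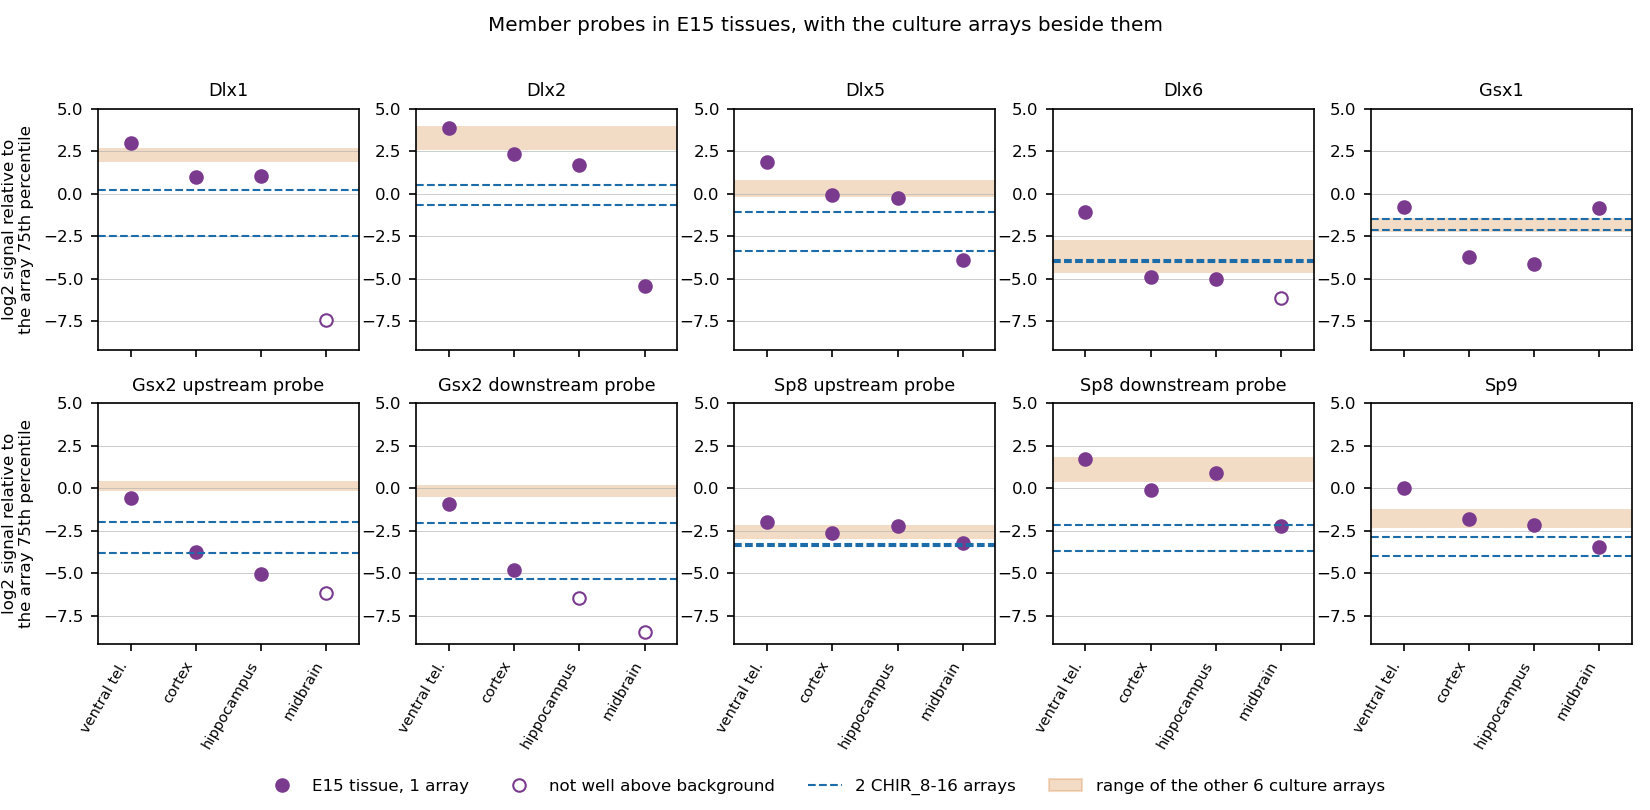
Log2 signal relative to the array 75th percentile (y axis) of each member probe in the 4 E15 tissues (x axis, 1 array each, open where not well above background), with dashed lines at the 2 CHIR_8-16 arrays and a band over the range of the other 6 culture arrays. Ventral telencephalon is highest in all 10 panels, and only the Gsx2 bands lie wholly above it.

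The embryo arrays were all on slide 1, apart from the cultures, so source and slide cannot be told apart, and levels are given side by side with no test. All 8 culture arrays were below E15 ventral telencephalon for 6 of the 10 probes: Dlx1, Dlx5, Dlx6, Gsx1, the upstream Sp8 probe and Sp9. Gsx2 was the opposite case in the cultures other than CHIR_8-16. All 6 of their arrays read above E15 ventral telencephalon on both Gsx2 probes, at -0.19 to 0.43 against -0.58 on the upstream and -0.55 to 0.16 against -0.92 on the downstream probe. They read above E15 cortex on all 6 arrays for 7 of the 10 probes, while both CHIR_8-16 arrays did so only for Dlx6 and Gsx1.

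RefSeq windows of 250 bases upstream of the start site (GRCm38.p6) were matched for 6 of the 8 members, Dlx1, Dlx2, Gsx1, Gsx2, Sp8 with 3 start sites, and Sp9, in 8 windows. They were searched on both strands for the core of TCF/LEF sites, CTTTGA or TCAAAG, since TCF/LEF factors carry the WNT signal that the agonist raises, and for the homeodomain core TAATTA, which Dlx and Gsx proteins can bind. A TCF/LEF core stood in 1 Sp8 window and in the Sp9 window, and in 13.8% of the 32851 windows of all genes. TAATTA stood in 1 other Sp8 window, and in 4.84% of all windows. Capitals mark the matches, and the 2 motifs did not overlap.
Sp8, chr12:118846983-118847232, plus strand: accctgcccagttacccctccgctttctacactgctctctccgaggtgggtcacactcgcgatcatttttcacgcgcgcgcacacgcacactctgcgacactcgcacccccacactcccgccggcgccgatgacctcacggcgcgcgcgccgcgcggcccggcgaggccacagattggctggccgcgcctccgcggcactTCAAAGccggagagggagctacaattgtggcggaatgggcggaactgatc
Sp9, chr2:73271676-73271925, plus strand: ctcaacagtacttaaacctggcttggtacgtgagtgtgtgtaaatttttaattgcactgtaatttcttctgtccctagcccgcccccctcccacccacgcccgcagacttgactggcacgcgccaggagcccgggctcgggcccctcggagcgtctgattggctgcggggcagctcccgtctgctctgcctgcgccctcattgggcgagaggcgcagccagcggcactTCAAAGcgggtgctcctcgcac
Sp8, chr12:118847309-118847558, plus strand: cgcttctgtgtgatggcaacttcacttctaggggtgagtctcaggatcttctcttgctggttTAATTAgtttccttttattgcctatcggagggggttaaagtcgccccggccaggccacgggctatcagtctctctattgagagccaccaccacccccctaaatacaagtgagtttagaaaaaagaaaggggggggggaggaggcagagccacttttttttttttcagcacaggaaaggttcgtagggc

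The TCF/LEF core of Sp8 and that of Sp9 lie in an identical run of 15 bases, gcggcactTCAAAGc, which was found in 2 of the 32851 windows, those 2. It ended close to both start sites, with 44 bases after the core in Sp8 and 16 in Sp9. The run was noticed on reading the sequences and was taken as the longest that these windows share. Its 2 matches were thus fixed in advance, and the count does not measure rarity. A match of letters is a description, not a site.

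Profiles of 16527 genes were set against the mean of Dlx1, Dlx2, Dlx5 and Dlx6 by the root mean square difference over the 12 arrays, in log2, each profile being centred on its own mean. Vax1, a homeobox gene of the ventral forebrain, was close at 0.77, followed by Dlx6os1 at 0.94, Dlx1as at 1.06, Gda, the guanine deaminase gene, at 1.28 and Tbr1, a gene of pallial neurons, at 1.30. Tbr1 was low in midbrain as the Dlx mean was, but on the CHIR_8-16 arrays it stood at 0.80 and 0.70 of its centred scale, where the Dlx mean stood at -0.65 and -2.21. The members themselves differed from the Dlx mean by 0.62 (Dlx5) to 2.24 (Gsx1).

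**Figure D4:**
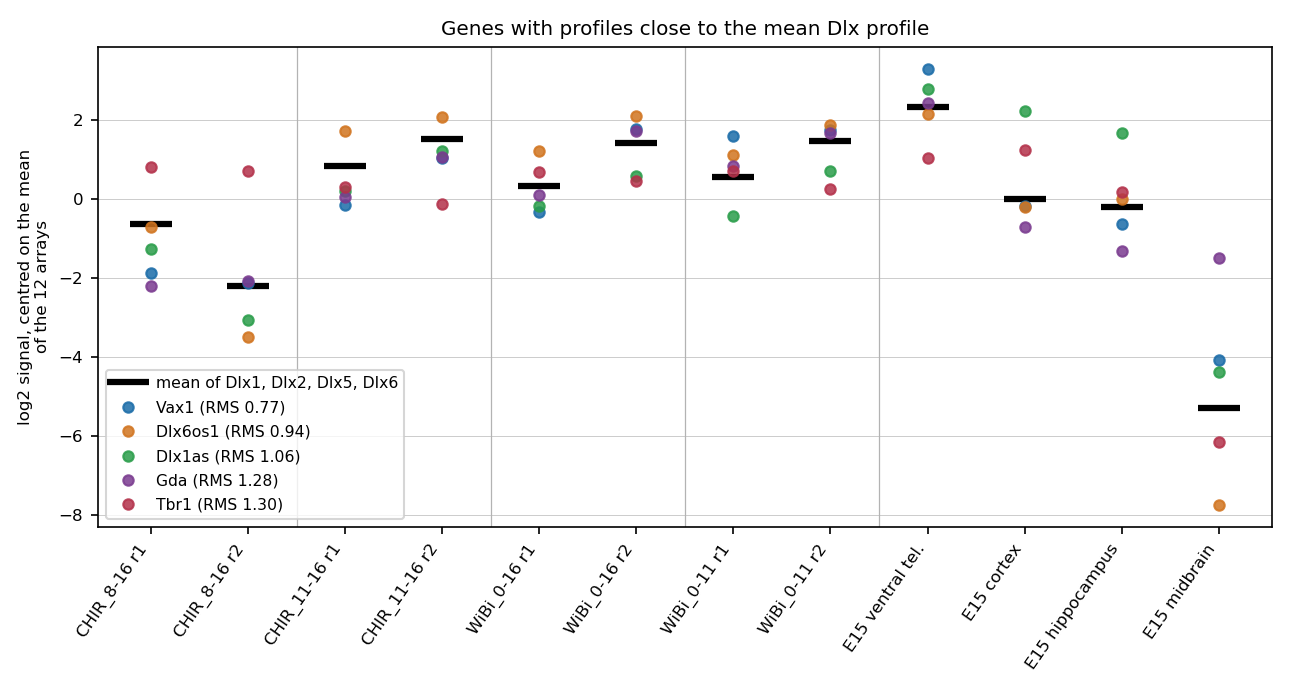
Log2 signal centred on the mean of the 12 arrays (y axis) for the mean of Dlx1, Dlx2, Dlx5 and Dlx6 (black bars) and for 5 genes with a small root mean square difference from it (points), by array (x axis). Vax1 differed by 0.77, and Tbr1 was close in midbrain but not on the CHIR_8-16 arrays.

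The wider list of GABAergic lineage genes had 22 genes, of which 21 were tested. Of these, 16 were lower and 5 higher in CHIR_8-16 than in WiBi_0-11 (median -0.43 log2, beside 0.06 for all probes). Of all probes 43.2% were lower. The summed signal of the list, on the scale of the pallial sums, was 106.84 and 57.33 in CHIR_8-16. On the other culture arrays it was 89.65 to 120.53. The CHIR_8-16 array with 106.84 lay inside that range and the other below it. Such a sum is weighted to the brightest probes and does not measure GABAergic content. On the CHIR_8-16 arrays these were Meis2 (5.39 and 3.19) and Lhx6 (4.48 and 3.35). The Lhx6 probe read alike in all E15 tissues, at 3.17 to 3.70. limma called 0 of the genes without the block. With the block it called 1, Gad1, which makes the main GABA-synthesising enzyme, where 0.307% of all probes were called against WiBi_0-11. Gad1 read -1.25 and -1.40 in CHIR_8-16, 0.82 and 1.45 in CHIR_11-16, 0.79 and 1.82 in WiBi_0-16, and 1.13 and 1.60 in WiBi_0-11. Both CHIR_8-16 arrays were close together and lowest. With the block it fell against WiBi_0-11 (log2 -2.69, SE 0.28, limma adjusted p = 0.049) and against WiBi_0-16 (log2 -2.63, adjusted p = 0.041), and without it the adjusted p was 0.22 and 0.17.

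Gad2, the second GABA-synthesising enzyme gene, read 0.49 and -0.84 in CHIR_8-16, against 0.27 and 1.26 in WiBi_0-11, with the arrays overlapping (log2 -0.94, SE 0.66, limma adjusted p = 0.78). Nkx2-1 was not well above background on any culture array.

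Markers of other cell types were read beside the members. Of 7 pallial genes 6 were higher and 1 lower in CHIR_8-16 than in WiBi_0-11 (median 0.46 log2). Of all probes 43.2% were lower in this comparison, and 0.307% were called with the block. With the block limma called 1 of the 7, Neurog2, a proneural factor of pallial progenitors. Neurog2 rose by 3.14 log2 (SE 0.25, limma adjusted p = 0.030, and 0.17 without the block). The summed signal of the 7 pallial genes, in multiples of the array 75th percentile, was 61.5 and 51.8 in CHIR_8-16, 42.8 and 31.3 in CHIR_11-16, 46.4 and 37.4 in WiBi_0-16, and 49.0 and 33.1 in WiBi_0-11. All 5 oligodendrocyte lineage genes were lower (median -3.85 log2), with 3 called under the block, Olig1, Olig2 and Gpr17, and a summed signal of 0.50 and 1.11 in CHIR_8-16, 1.61 and 2.88 in CHIR_11-16, 4.56 and 10.97 in WiBi_0-16, and 8.42 and 8.28 in WiBi_0-11. Olig1 differed by -5.09 log2 (limma adjusted p = 0.037 with the block) and Olig2 by -3.32 (adjusted p = 0.041), and Gpr17 was not well above background on either CHIR_8-16 array. Olig1 and Olig2 are also made by ventral telencephalic progenitors. The part of these cell types in the member differences was not tested.

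The pan-neuronal sum was 220.1 and 244.5 in CHIR_8-16, against 196.9 to 249.5 on the other 6 culture arrays, with 0 of the 4 genes found by symbol called. Bone and mesenchyme genes, of interest since Dlx5 and Dlx6 also act in bone, summed to 4.33 and 2.13 in CHIR_8-16, 7.0 and 3.49 in CHIR_11-16, 5.52 and 4.8 in WiBi_0-16, and 11.9 and 11.9 in WiBi_0-11, with 2 of 7 called lower under the block, Ibsp and Col3a1. Ibsp was not well above background on either CHIR_8-16 array. The 5 surface ectoderm and placode genes summed to 15.3 and 9.48 in CHIR_8-16, against 8.54 to 13.5 on the others, the 5 midbrain genes to 1.21 and 2.20 against 1.03 to 2.01, and the 6 hypothalamic and prethalamic genes to 0.20 and 0.81 against 0.04 to 0.50, with 0 called against WiBi_0-11 in these 3 lists. En1, Otp and Six6 were not well above background on any culture array.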

How the data were processed

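RNA of 12 samples was read on single-colour Agilent arrays. Per the file headers, the authors' scanner files came from Feature Extraction 10.7.3.1, while the submitters' processing notes name Feature Extraction 9.1 and limma. The deposited intensity values are processed signals, background-subtracted by that software. The deposited series table holds log2 values normalized by the authors by a method not given in the sources used here. Its columns correlated at 0.989 to 0.994 with their own arrays, and it was used as an alternative.

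Each processed signal was put on the log2 scale and the array's own 75th percentile subtracted, and spots of a probe were averaged. Gene names came from the embryo files and were joined to the culture files by probe. The filter kept a probe if some culture group had it well above background on each of its 2 arrays and if its spot was unmarked on all 8 culture arrays. limma 3.58.1 in R 4.3.3 fitted all 8 culture arrays with a mean per group, and p-values were adjusted by Benjamini-Hochberg over all 36430 probes that passed. Embryo tissues had 1 array each and no test.

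Replicates with the same number shared a slide, per the file headers. Their deviations from the group means correlated at 0.57 to 0.653 over 6 pairs of groups, so slide was used as a block in a paired fit. That fit was also run on simulated arrays with known changes. These had independent noise and no slide effect, so they could not test the block itself. The members, named genes and lists were chosen with earlier results of these data known. The rule for named genes took all member probes, the cluster RNAs, set genes of the GABAergic list with its blocked calls, and the 6 closest profiles. Some genes it took are not reported here. The normexp alternative used the median spot signal, since the culture files hold no mean signal. Other alternatives were quantile normalization, no filter, a floor for dim spots, the brightest probe of a gene and leaving out each array. The floor and the missing filter with the block, and the deposited table for the array orders, were chosen after seeing the data.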

Additional observations from a re-analysis of the deposited data

How the results depend on the processing

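Of 834 recomputed member differences, 792 kept their direction and side of the threshold, 32 passed only in the alternative and 10 turned sign, all of them Dlx6 or Gsx1. Against WiBi_0-11, Dlx6 read 0.26 without WiBi_0-11 replicate 2 and 0.30 with the block without CHIR_8-16 replicate 2, and Gsx1 read 0.00 and 0.02 (block) without CHIR_8-16 replicate 2. Against CHIR_11-16 without CHIR_8-16 replicate 2, Dlx6 read 0.33 (block) and Gsx1 0.07 and 0.08 (block). Against WiBi_0-16, Dlx6 read 0.50 with the block without CHIR_8-16 replicate 2, and 0.73 and 0.37 (block) without WiBi_0-16 replicate 2. Without the block, the lowest values on leaving out 1 array were -1.16 (Dlx6) and -0.62 (Gsx1) against WiBi_0-11, -0.56 (Gsx1) against CHIR_11-16 and -1.23 (Dlx6) against WiBi_0-16. The cause was not tested.

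With the replicate block, the member probes called in CHIR_8-16 numbered 1 against WiBi_0-11 and 1 against WiBi_0-16, and 1 in each with quantile normalization, the deposited table or a floor for dim spots added. With normexp added they numbered 3 and 5, and 1 against CHIR_11-16, as with quantile normalization (1) or the deposited table (1). Leaving out 1 array gave 0 to 6 against WiBi_0-11 and 0 to 7 against WiBi_0-16, the highest without CHIR_8-16 replicate 1. Where a group is left with 1 array, it is assumed to vary like the others.

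Over all probes, 0 were called in CHIR_8-16 against WiBi_0-11. The count was 112 with the block, 9 with quantile normalization, 2 with normexp and 3 with the brightest probe of a gene, and with the block 128 (quantile), 515 (normexp), 216 (deposited table), 75 (dim floor) and 0 (no filter). Against WiBi_0-16 it was 339 with the block, 4, 10 and 4 with the same 3 changes, and with the block 330, 1561, 635 and 356. Without CHIR_8-16 replicate 1 the blocked counts were 51 against WiBi_0-11 and 317 against WiBi_0-16. CHIR_11-16 against WiBi_0-16 reached 547 (block with normexp) and 129 (block with the deposited table), and CHIR_8-16 against CHIR_11-16 at most 32 (block with normexp). CHIR_11-16 and WiBi_0-16 against WiBi_0-11 each had 3 with the block and at most 4. The 7 member probes at least 2-fold higher in E15 ventral telencephalon were 7 with median scaling and with the deposited table.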
